A study of Mus musculus with 4 samples.

Results

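The Nkx2, Hand and Hey factors are 9 transcription factors of the developing heart and pharynx, the NK-2 homeodomain factors Nkx2-5, Nkx2-3, Nkx2-6 and Nkx2-9, the basic helix-loop-helix (bHLH) factors Hand1 and Hand2, and the Notch-responsive bHLH repressors Hey1, Hey2 and Heyl. They were taken by gene symbol from a table of 20701 genes, and each of the 9 had a single transcript entry there. Transcript levels were measured by RNA-Seq in 4 libraries of cardiac progenitor cells, 2 from control clones and 2 from Isl1-/- clones, here called control and Isl1_KO. All clones derived from the E14 Tg(Nkx2-5-EmGFP) embryonic stem cell line, which carries a green fluorescent reporter of Nkx2-5 as a transgene. The Isl1-/- clones had been made with CRISPR/Cas9 and a pair of guide RNAs, then picked as single clones and screened by PCR. Cells of both groups were kept on mitomycin-treated embryonic fibroblasts, differentiated into cardiac progenitors, and sorted for the green reporter at day 5. The study's methods describe 2 different clones in each group, so that differences between clones other than Isl1 cannot be told apart from the genotype.

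NK-2 proteins bind DNA through a homeodomain. Nkx2-5 is a core factor of the early heart, where it acts with Gata, T-box and Mef2 proteins, while its relatives are best known from the pharyngeal region, the foregut and the spleen. Hand proteins pair with ubiquitous E proteins, and Hand1 is known from the left ventricle and extraembryonic mesoderm, Hand2 from the right ventricle and second heart field. Hey genes are switched on by Notch signalling through the DNA-binding protein Rbpj, and Hey1 and Hey2 help to divide atrial, atrioventricular and ventricular territories. Isl1 marks the progenitors of the second heart field, and the question asked here is how the levels of these factors differ in progenitors that lack it.

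Depth over 1 transcript per gene came to 8821517 and 9147425 counts in the control pair, and to 13186109 and 11388333 counts in the Isl1_KO pair. A floor of 3 counts corresponded to 0.228 to 0.340 CPM, the standard scaling of a gene's counts to the total of its library, and this floor covers counting error only. The targeted gene, Isl1, kept 17 and 24 counts in the Isl1_KO libraries, where control had 309 and 326. Between the control libraries the chi-square for each degree of freedom was 1.13, close to the value of 1 that counting error alone gives, and between the Isl1_KO libraries it was 17.7. Their biological coefficient of variation was 1.29%, and that of the Isl1_KO libraries 16.3%. The control pair may therefore not show the full spread between clones, and the labels do not say which clone each library came from. The 4 Y-linked genes Ddx3y, Eif2s3y, Uty and Kdm5d together had 579 and 568 counts in control and 1 count in each Isl1_KO library. Of 9 cardiac progenitor markers, Isl1 among them, all were detected in control. Their sum was 1258 and 1263 CPM in control and 752 and 753 CPM in Isl1_KO. Markers of other lineages were also present in the sorted cells. Among them was the embryonic globin Hbb-bh1, at 284 and 293 CPM in control and 160 and 42.0 CPM in Isl1_KO. Hba-x, of the same blood list, was at 98.3 and 97.7 CPM in control and 40.6 and 3.64 CPM in Isl1_KO. The 8 blood markers summed to 519 and 530 CPM in control and 405 and 292 CPM in Isl1_KO. Their median log2 fold change was 0.660, so neither the fall of Hbb-bh1 nor the sum stands for the whole list.

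Of the 9 factors, 8 had enough counts for the test, and 3 of them, Nkx2-5, Nkx2-3 and Hand2, passed edgeR's quasi-likelihood test (adjusted p under 0.05) and were lower in Isl1_KO. None was higher at that threshold. Over all 12715 genes tested, 2.45% passed, 1.94% as lower and 0.503% as higher. Nkx2-5 and Hand2 were above the filter on low counts in all 4 libraries. Nkx2-3 and Nkx2-6 were above it in the control libraries alone, and Heyl in these and the first Isl1_KO library, so the count of 3 is a description and not support for a difference in the set. Nkx2-9 had too few counts. In CPM, both Isl1_KO libraries lay below both control libraries for 8 of the 9 factors and above them for Hand1. The same was true of 29.0% of all tested genes for lower and 29.1% for higher, so the lack of overlap is common here. None of the 3 passed when either control library was left out, with edgeR adjusted p from 0.108 to 0.490.

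**Figure D1:**
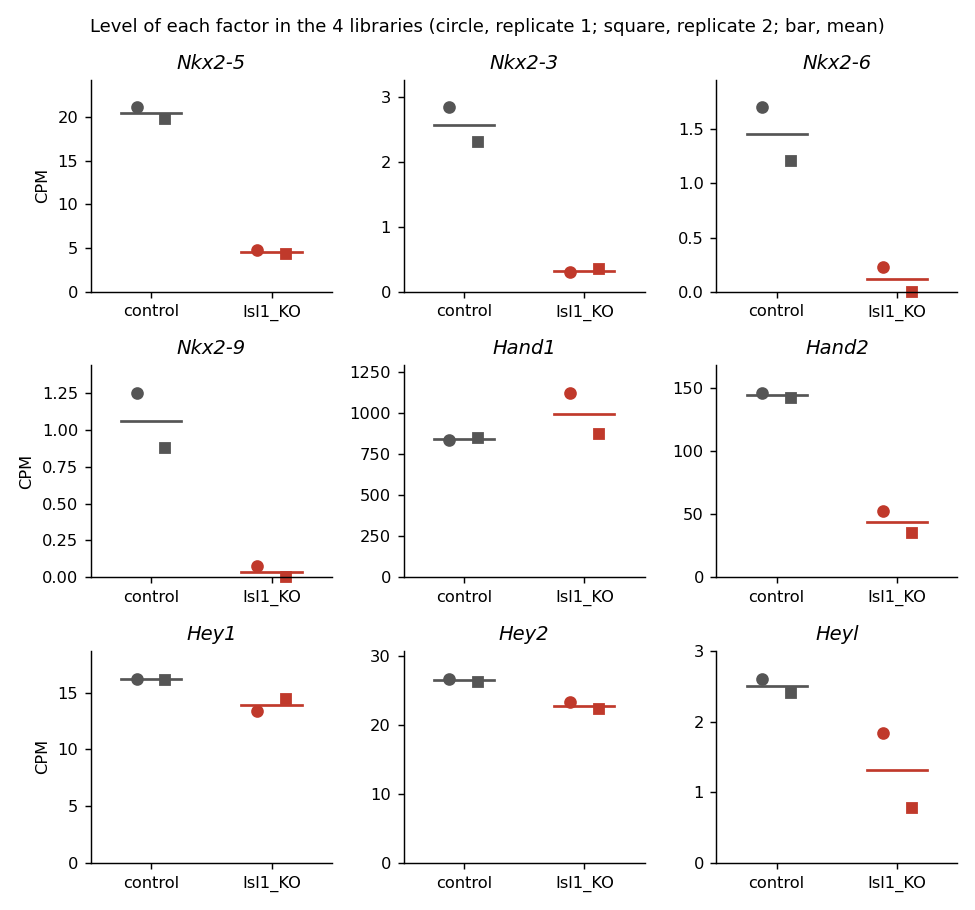
Level of each of the 9 factors in CPM (vertical axes from 0) in control and Isl1_KO, where circles are replicate 1, squares replicate 2 and bars the mean of 2 libraries. The Isl1_KO points lie below the control points in every panel except that of Hand1, where they lie above.

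Set per length of transcript, as the authors' RPKM (reads per kilobase of transcript, scaled to depth), Hand1 was the most abundant of the 9 in control, at 250 and 252 RPKM, followed by Hand2 at 37.0 and 36.0. Nkx2-5 came next at 7.83 and 7.35 RPKM, ahead of Hey2 at 5.96 and 5.84 and Hey1 at 4.16 and 4.13. The other 4 were below 1 RPKM. In Isl1_KO, Hand1 and Hand2 kept their ranks, Hey2 (5.19 and 5.15 RPKM) and Hey1 (3.42 and 3.83) came next, and Nkx2-5 followed at 1.76 and 1.67. Neighbours in rank did not share a range of values, except Nkx2-6 and Nkx2-3 in control, and Heyl, Nkx2-3, Nkx2-6 and Nkx2-9 in Isl1_KO, whose RPKM values cannot be put in order.

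Among the NK-2 factors, Nkx2-5 (chromosome 17, 26975609 to 26978510, minus strand, NCBIM37) was read 186 and 181 times in control but 62 and 50 times in Isl1_KO, whose libraries were deeper. As levels these were 21.1 and 19.8 CPM in control against 4.77 and 4.34 CPM in Isl1_KO, so that the groups were far apart and the libraries within each close. The mean fell from 20.5 ± 0.925 to 4.55 ± 0.303 CPM (SD, n = 2 each), to 23.3% and 21.2% of the control mean in the 2 Isl1_KO libraries. The change on the log2 scale was -2.16 with an SE of 0.154 (adjusted p by edgeR 0.00703), lower than that of all but 1.29% of the genes tested. All cells had been sorted for a reporter of this gene, so the remaining transcript was measured in reporter-positive cells of both groups. In sorted cells read as bulk, fewer cells of a type and less RNA per cell cannot be told apart. Reads from Nkx2-5 sequence within the reporter transgene, if it holds any, would be counted with those of the gene itself.

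Nkx2-3 (chromosome 19, 43686815 to 43690381, plus strand), a factor known from gut, spleen and pharynx, had 25 and 21 counts in control and 4 counts in each Isl1_KO library. Its level was 2.84 and 2.30 CPM in control and 0.307 and 0.347 CPM in Isl1_KO, a log2 change of -2.93 with an SE of 0.385 (adjusted p by edgeR 0.0342). From the summed counts the ratio of control to Isl1_KO was 7.86, with a 95% exact interval for counting error of 3.67 to 19.3. Nkx2-3 entered the test through its control counts alone. The counts of the Isl1_KO libraries were just above the floor, and with a requirement of 10 counts in every library Nkx2-3 was not tested.

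Nkx2-6 and Nkx2-9 were scarcer still. Nkx2-6 (chromosome 14, 69789633 to 69793596, plus strand), known from the pharyngeal pouches and outflow tract, had control counts of 15 and 11, against 3 and 0 in Isl1_KO. The ratio of its summed counts was 11.8 (95% exact interval 3.63 to 61.2), and the log2 fold change of -3.45 (SE 0.811) did not pass over all genes (edgeR adjusted p 0.0979). An exon of Nkx2-6 overlaps 1700092C10Rik on the opposite strand, and counting ignored strand, so its value is less certain. Nkx2-9 (chromosome 12, 57712376 to 57714271, minus strand), known from the ventral neural tube and pharyngeal endoderm, had control counts of 11 and 8, against 1 and 0 in Isl1_KO. The ratio was 26.0 with a 95% exact interval of 4.13 to 1079, a range so wide that only the direction can be read at this depth. With the study's criteria, an absolute log2 fold change over 0.58 and an unadjusted p under 0.05 in DESeq2, all 4 NK-2 factors and Hand2 were lower, against 5.89% of all genes in either direction and 4.57% as lower. Of the other NK-2 genes, Nkx2-1 had 0 counts in every library, and Nkx2-2 and Nkx2-4 each had at most 2.

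NK-2 genes are related in sequence, and near-identical stretches could let reads be placed on the wrong copy. Over whole transcripts of GENCODE vM1, the longest run of bases that Nkx2-5 shared exactly with a relative was 34 with Nkx2-6, 30 with Nkx2-9 and 23 with Nkx2-3, each inside the homeobox that encodes the DNA-binding homeodomain. Between Hand1 and Hand2, and between any pair of the 3 Hey genes, the longest shared run was at most 17 bases.

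A promoter entry of RefSeq (GRCm38.p6) was matched for 5 of the 9 factors. Nkx2-6, Hand1, Hey1 and Heyl had none. The 250 bases before the start of the 3 factors that passed the test are shown because these genes were lower together, 5′ to 3′ on the gene's strand. Capitals mark 4 short motifs, searched on both strands and allowed to overlap, and matches are a description of letters only. These are AAGTG, a core bound by NK-2 proteins and found in 40.7% of all 32851 promoters of that length, GATAA, bound by GATA factors (22.6%), GTGGGAA, a site of the Notch effector Rbpj (5.42%), and TAATT, a core read by many homeodomains (25.03%). The promoters are those of Nkx2-5 (chr17:26841566-26841815, minus strand), Nkx2-3 (chr19:43612075-43612324, plus strand) and Hand2 (chr8:57320733-57320982, plus strand).
Nkx2-5: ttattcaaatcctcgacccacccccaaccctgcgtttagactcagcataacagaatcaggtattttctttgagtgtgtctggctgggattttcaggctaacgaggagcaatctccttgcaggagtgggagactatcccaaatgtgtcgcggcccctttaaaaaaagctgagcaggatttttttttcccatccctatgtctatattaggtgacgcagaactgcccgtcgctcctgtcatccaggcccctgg
Nkx2-3: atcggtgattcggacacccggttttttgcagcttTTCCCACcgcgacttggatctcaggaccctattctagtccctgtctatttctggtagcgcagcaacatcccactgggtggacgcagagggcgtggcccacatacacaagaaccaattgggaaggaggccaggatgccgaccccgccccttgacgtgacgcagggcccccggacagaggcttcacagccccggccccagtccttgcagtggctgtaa
Hand2: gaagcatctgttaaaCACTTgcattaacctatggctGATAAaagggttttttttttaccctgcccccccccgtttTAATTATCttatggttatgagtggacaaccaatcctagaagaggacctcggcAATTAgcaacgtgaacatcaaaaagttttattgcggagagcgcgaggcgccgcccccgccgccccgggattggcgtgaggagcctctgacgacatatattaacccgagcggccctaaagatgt
No motif of the 4 was matched in the Nkx2-5 window. The Nkx2-3 window held 1 match to GTGGGAA. The Hand2 window held 1 match to AAGTG, 2 to GATAA and 3 to TAATT, and its second GATAA match and first pair of TAATT matches overlap in 1 stretch of capitals. The E-box CANNTG, bound by bHLH proteins and held by 66.2% of all promoters, was searched too but is not capitalised, with 1 match in the Nkx2-5 window, 1 in that of Nkx2-3 and 2 in that of Hand2, where 1 overlaps AAGTG.

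Of the Hand genes, Hand2 passed the test and Hand1 did not. Hand2 (chromosome 8, 59799780 to 59803314, plus strand) was read 1289 and 1301 times in control, and 682 and 410 times in Isl1_KO. Its level was 146 and 142 CPM in control and 52.4 and 35.6 CPM in Isl1_KO, with the Isl1_KO libraries further apart from each other than those of control. The mean fell from 144 ± 2.80 to 44.0 ± 11.9 CPM (SD, n = 2 each), 3.28-fold, or by -1.71 on the log2 scale with an SE of 0.182 (adjusted p by edgeR 0.0205). Without the second Isl1_KO library the log2 fold change was -1.46, and without the first it was -2.02.

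Hand1 (chromosome 11, 57642207 to 57646320, minus strand) was read 7391 and 7750 times in control, and 14602 and 10043 times in Isl1_KO. Its level was 839 and 848 CPM in control and 1122 and 871 CPM in Isl1_KO, the lower of which lay just above control. The change on the log2 scale was 0.24 with an SE of 0.130 (adjusted p by edgeR 0.329), which did not pass. Without the second Isl1_KO library it was 0.41, and without the first it was 0.047, so the value depends on which Isl1_KO library is read.

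Within each library, Hand1 was 6.75 and 7.02 times as abundant as Hand2 in control, in counts per base of transcript, and 25.2 and 28.9 times as abundant in Isl1_KO. The ratio was 3.92-fold higher in Isl1_KO, or 1.97 on the log2 scale, with SDs of 0.0389 and 0.137 (n = 2 each). The groups of this ratio did not overlap, although an exact two-sided permutation test of 2 libraries against 2 cannot give a p below 0.333, which was the value obtained. A ratio within a library does not depend on how the library was scaled.

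**Figure D2:**
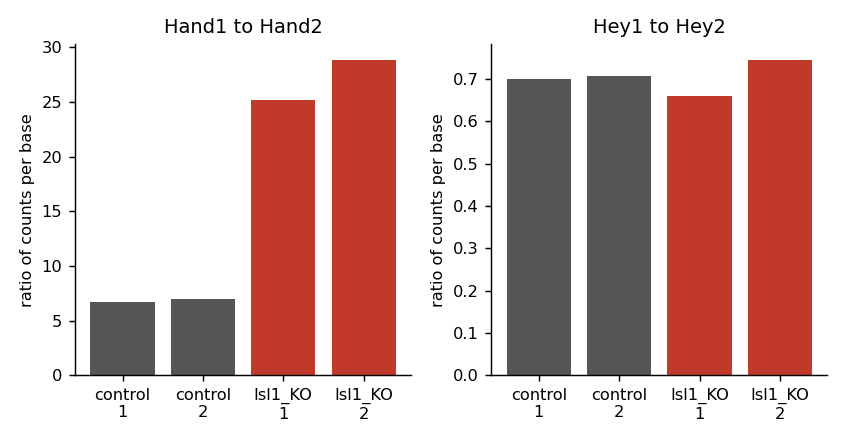
Ratio of counts per base of transcript within each library for Hand1 to Hand2 (left) and Hey1 to Hey2 (right), with bars from 0 and no error bars, since each bar is 1 library. The Hand ratio is 6.75 and 7.02 in control, and in Isl1_KO it is 25.2 and 28.9, while the Hey ratio is between 0.660 and 0.745.

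None of the 3 Hey genes passed the test with all libraries. Hey1 (chromosome 3, 8663362 to 8667039, minus strand) was at 16.2 and 16.1 CPM in control and 13.4 and 14.4 CPM in Isl1_KO, a log2 change of -0.22 with an SE of 0.130 (adjusted p by edgeR 0.369). Hey2 (chromosome 10, 30552165 to 30562607, minus strand) was at 26.7 and 26.2 CPM in control and 23.3 and 22.2 CPM in Isl1_KO, a log2 change of -0.21 with an SE of 0.104 (adjusted p by edgeR 0.288). In both genes the Isl1_KO libraries were between 82.8% and 89.1% of the control mean, a small difference that this design does not separate from 0. Their ratio, Hey1 to Hey2, was 0.699 and 0.707 in control and 0.660 and 0.745 in Isl1_KO, so that the Isl1_KO values lay on either side of control (exact two-sided permutation p = 1.0).

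Heyl (chromosome 4, 122910799 to 122927118, plus strand), a vascular and muscle relative of Hey1 and Hey2, had control counts of 23 and 22, against 24 and 9 in Isl1_KO. Its level was 2.61 and 2.41 CPM in control and 1.84 and 0.781 CPM in Isl1_KO. The change on the log2 scale was -0.91 with an SE of 0.447 (adjusted p by edgeR 0.296), and it ranged from -1.67 to -0.44 when 1 library was left out. Without the first Isl1_KO library the change was -1.67, and without the second it was -0.44. Each of these fits leaves 1 Isl1_KO library and cannot support a call. The second Isl1_KO library carried most of the difference.

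The Hey2 promoter (chr10:30842784-30843033, minus strand, GRCm38.p6) is shown with the same motifs in capitals, since Hey2 is a target of Notch and held 1 match to the Rbpj site.
Hey2: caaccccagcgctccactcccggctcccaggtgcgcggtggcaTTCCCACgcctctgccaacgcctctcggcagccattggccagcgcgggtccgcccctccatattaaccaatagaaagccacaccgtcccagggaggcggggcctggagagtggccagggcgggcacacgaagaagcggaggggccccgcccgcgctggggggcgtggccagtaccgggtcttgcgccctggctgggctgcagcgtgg

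**Figure D3:**
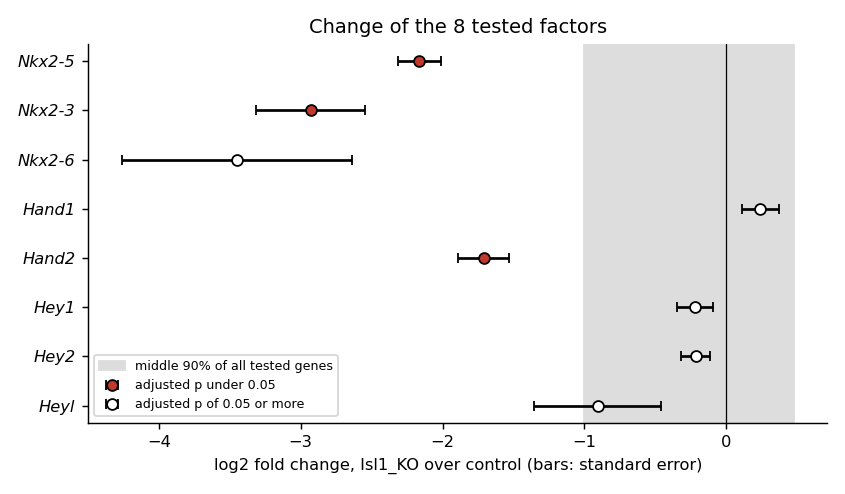
Log2 fold change of Isl1_KO over control (horizontal axis) for the 8 factors tested by edgeR, with bars of 1 standard error, filled where the adjusted p is under 0.05, and a grey band for the middle 90% of all 12715 tested genes (-1.01 to 0.48). Nkx2-5, Nkx2-3 and Hand2 are filled and lie left of the band. Nkx2-6, at -3.45, also lies left of the band but is not filled, and Hand1 and the Hey genes lie inside it.

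Of 8 partner factors with which Nkx2-5 acts, 4 were lower in Isl1_KO and none was higher, and the median log2 fold change was -0.76 against -0.0027 over all tested genes. The endoderm and heart factor Gata5 was at 25.1 and 24.4 CPM in control and 1.38 and 0.434 CPM in Isl1_KO (adjusted p by edgeR 0.00902). Tbx5, a T-box factor of the first heart field and atria, was at 12.9 and 13.5 CPM in control and 0.999 and 1.13 CPM in Isl1_KO (adjusted p by edgeR 0.00376). Mef2c and Gata6 passed as well, at log2 fold changes of -4.23 and -1.02. Gata4, Tbx20 and Srf were among those that did not pass, at log2 fold changes of -0.49, -0.47 and -0.37.

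Of 10 genes known to need Nkx2-5 in the heart, 9 could be tested, 5 were lower and none was higher, with a median log2 fold change of -2.85. Over all tested genes 1.94% passed as lower, and the 10 cardiomyocyte markers, which include Actc1, had a median of -4.29. Whether the lower level of Nkx2-5 had a part in these values was not tested. The ventricular light chain Myl2 had control counts of 39 and 43, against 1 and 0 in Isl1_KO (edgeR adjusted p 0.0128), and the muscle gene Smpx had 18 and 22 against 1 and 0 (edgeR adjusted p 0.0322), and both entered the test through control alone. The methyltransferase Smyd1 was at 82.9 and 86.0 CPM in control and 1.84 and 0.781 CPM in Isl1_KO (edgeR adjusted p 0.00255). Myocd and Actc1 also passed, at log2 fold changes of -4.30 and -2.85. The other 4 that were tested did not pass. They were Ankrd1 at -0.21, Nppb at -0.33, Irx4 at -2.06 and the homeodomain-only cofactor Hopx at -1.33. Ankrd1 lay at 132% of the control mean in the first Isl1_KO library and 40.8% in the second, so these libraries fell on either side of control. Nppa, the natriuretic peptide gene, had between 3 and 6 counts and was not tested.

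The E proteins with which Hand proteins pair, and the Id proteins that capture E proteins, did not pass in any case (0 of 7). Tcf3, Tcf12 and Id3 had log2 fold changes of -0.04, -0.17 and -0.02, and Tcf3, which encodes E12 and E47, was at 256 and 261 CPM in control and 276 and 228 CPM in Isl1_KO. Among 6 Twist-type bHLH relatives of Hand, 4 were tested and 1 was lower. Twist1, a mesenchymal factor that competes with Hand for E proteins, was at 52.7 and 52.5 CPM in control and 22.9 and 14.1 CPM in Isl1_KO (adjusted p by edgeR 0.0467). Tcf21, an epicardial factor, had 64 and 57 counts in control, 39 and 10 in Isl1_KO, and did not pass.

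In the Notch pathway upstream of Hey, 1 of 9 receptors and ligands was lower and none was higher. This was the ligand Jag1, at 63.0 and 60.8 CPM in control and 13.8 and 11.5 CPM in Isl1_KO, a log2 change of -2.29 with an SE of 0.123 (adjusted p by edgeR 0.00295). Notch3 was at 213 and 222 CPM in control and 299 and 358 CPM in Isl1_KO, a log2 fold change of 0.60 that did not pass (edgeR adjusted p 0.0618). Notch1 and Notch2 were at 0.011 and 0.016. None of 7 tested genes of the nuclear complex and its modifiers passed, among them Rbpj, Maml1 and Maml3 at -0.27, 0.09 and -0.55. None of the 4 Hes relatives with enough counts passed, and Hes1, a further Notch target, was at 69.6 and 71.5 CPM in control and 80.4 and 69.4 CPM in Isl1_KO.

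**Figure D4:**
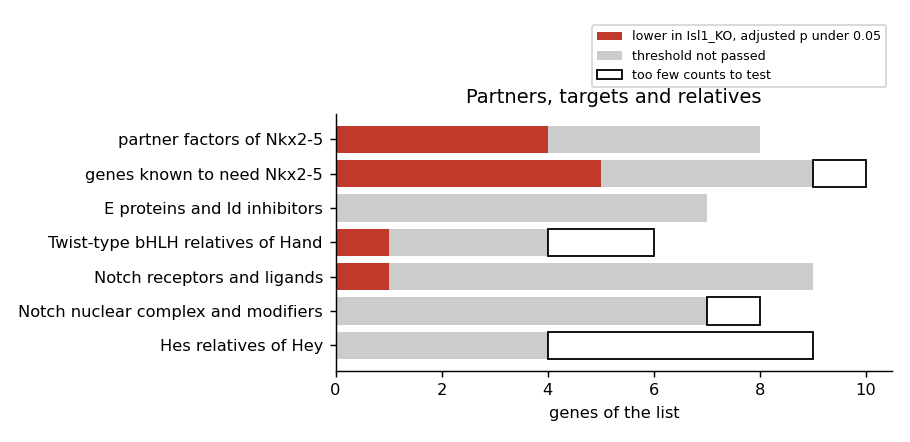
Number of genes (horizontal axis) in each list of partners, targets and relatives that were lower in Isl1_KO at an edgeR adjusted p under 0.05 (red), did not pass (grey) or had too few counts to test (white). Red appears in 4 lists, with 4 of 8 partners and 5 of 10 Nkx2-5-dependent genes, and no gene of these lists was higher.

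The marker lists were read beside these values. Of the 9 cardiac progenitor markers, 5 were lower in Isl1_KO and none was higher, with a median log2 fold change of -1.02. These 5 were Isl1, which is the targeted gene itself, Tbx5, Mef2c, Gata6 and Smarcd3, and the other 4 did not pass. Tbx5, Mef2c and Gata6 were also counted among the partner factors of Nkx2-5, so these lists are not separate. All 10 cardiomyocyte markers were lower in Isl1_KO, with a summed level of 2045 and 2129 CPM in control and 143 and 84.2 CPM in Isl1_KO. Of the endoderm markers, 3 of 10 were lower and none was higher, and their sum was 229 and 226 CPM in control and 187 and 184 CPM in Isl1_KO. These 3 were Pax1, Pax9 and Shh, which entered the test through control alone. Pax1 had control counts of 65 and 66, against 4 and 0 in Isl1_KO, Pax9 43 and 44 against 6 and 3, and Shh 60 and 56 against 5 and 0, with edgeR adjusted p of 0.0235, 0.0152 and 0.0342. The other 7 did not pass. Their log2 fold changes were -0.20 for Foxa2, 0.10 for Sox17, 0.19 for Epcam, -0.25 for Cldn6, -0.50 for Foxa1, -0.94 for Afp and -0.60 for Ttr, and Afp and Ttr were at 24.4% and 28.8% of the control mean in the second Isl1_KO library. None of the smooth muscle, endothelial, pluripotency or fibroblast markers passed, and 1 of 8 blood markers, Runx1, was higher. The fibroblast sum was 1879 and 1821 CPM in control and 1116 and 411 CPM in Isl1_KO, and that of smooth muscle 2519 and 2526 against 2173 and 744, so both sums were lowest in the second Isl1_KO library. No defining marker of these lists was at 0 in every library. Whether a different mix of cells had a part in the values of Nkx2-5, Hand2 and the other factors was not tested.

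**Figure D5:**
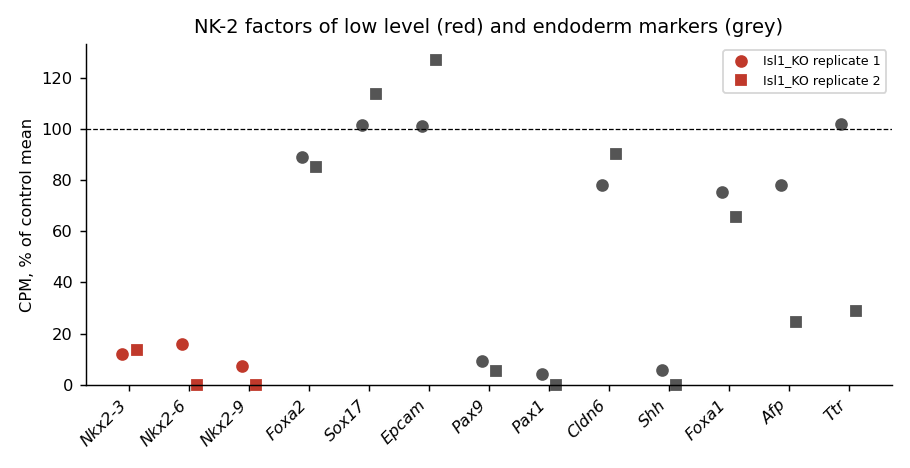
Level in each Isl1_KO library (circles, replicate 1; squares, replicate 2) as a percentage of the control mean in CPM, for Nkx2-3, Nkx2-6 and Nkx2-9 (red) and 10 endoderm markers (grey), with a dashed line at 100%. The 3 NK-2 factors, Pax9, Pax1 and Shh lie below 20%, Foxa2, Sox17, Epcam and Cldn6 lie between 78.2% and 127%, and Foxa1 (75.5% and 65.7%), Afp (78.2% and 24.4%) and Ttr (102% and 28.8%) reach lower values.

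The genes within 100000 bases of the factors were listed as well, on NCBIM37. Pax9 lies 78483 bases from Nkx2-9, and Slc25a21, next to it, had 9 and 10 counts in control and 0 in both Isl1_KO libraries (edgeR adjusted p 0.0627). The 4 genes near Nkx2-5 (Bnip1, Kifc5b, Phf1 and Cuta) had log2 fold changes from -0.13 to 0.016, and the 3 near Nkx2-3 (Got1, Slc25a28 and Entpd7) from -0.34 to 0.26. None of these 7 passed.

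The genes whose levels followed those of Nkx2-5 most closely over the 4 libraries were Jag1, Spon1 and Hrc, out of 10758 genes whose log2 CPM averaged 2 or more. Likeness was the root mean square difference of log2 CPM after centring each gene on its mean, and it was 0.0838, 0.0982 and 0.105 for these genes. Spon1, a matrix protein gene, was at 61.1 and 62.7 CPM in control and 13.7 and 11.5 CPM in Isl1_KO, and Hrc, which encodes a calcium-binding protein of the sarcoplasmic reticulum, at 20.7 and 23.5 against 4.84 and 4.68. For Hand2 the nearest genes were Foxc1, the carboxypeptidase M gene Cpm and Hoxa9, with differences of 0.0549, 0.0603 and 0.0660. Foxc1, a forkhead factor of mesoderm, was at 16.8 and 16.9 CPM in control and 5.53 and 3.99 CPM in Isl1_KO. With 4 libraries in 2 groups, likeness mainly reflects an equal size of difference between the groups.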

How the data were processed

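RNA-Seq was done on 4 poly(A) libraries of reporter-sorted cells, 2 per group, made with a stranded kit. Groups and replicate numbers came from the sample titles, which say knockout where the design text says knockdown. The authors mapped reads to mm9 with STAR (introns of 20 to 500000 bases) and counted exonic reads of RefSeq transcripts on both strands with HOMER, and their versions are not given in the sources used here. Deposited counts are whole numbers for each transcript entry. RPKM, which the authors computed with edgeR, served only to rank levels. The authors' deposited DESeq2 comparison (log2 fold changes, p-values, a Wald score and a signal column of mean normalized counts) was not used. Columns not matched to a sample numbered 0. The deposited lengths in bases were used for ratios between genes.

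Of 31507 entries, that with the highest summed count was kept for each of 20701 symbols. Groups were compared by edgeR 4.0.16 (R 4.3.3) with its quasi-likelihood test, two-sided and without covariates, after TMM scaling and filterByExpr. The p-values of 12715 genes were adjusted by Benjamini-Hochberg and read at 0.05. The script was tested on simulated data with equal variation in both groups, so that test does not cover the unequal variation of these groups. CPM values used effective library sizes. DESeq2 1.42.0 served as an alternative, as did the other settings named in the closing section. Sequences, ratios and plots were handled in Python 3.11.15 with Biopython 1.88, scipy 1.17.1, numpy 2.4.6, pandas 2.3.3 and matplotlib 3.10.9. Positions of genes come from GENCODE vM1 (NCBIM37, the same assembly as mm9), and promoters are those of RefSeq on GRCm38.p6. With 2 libraries a group, tests rest on error shared across genes, and p-values measure the spread between these libraries only. Intervals and floors cover counting error only, since reads carried no molecular identifiers.

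The 9 factors and the gene lists were chosen with earlier results of these data known. The genes named were the factors, Isl1, genes of the partner, target, relative and Notch lists past the threshold with up to 3 others of high level per list, markers as counts and sums with a few examples, and the 3 genes nearest in pattern to each factor past the threshold with at least 10 counts in every library. Genes near the factors, Y-linked genes and Irx4, Nppa, Pax1, Pax9, Shh, Foxa2, Sox17 and Afp were added after values were seen. Some genes and sequences are not reported here.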

Additional observations from a re-analysis of the deposited data

How the results depend on the processing

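Nkx2-5, Nkx2-3 and Hand2 kept their direction in every alternative that tested them. They stayed past the threshold with DESeq2, with its size factors, without a filter, with all transcript entries, with counts summed over entries and under the study's criteria, and with a minimum of 10 counts per library Nkx2-3 dropped out of the test. The 3 factors called became 5 under the study's criteria, with Nkx2-9 added, and Nkx2-6 at a log2 fold change of -3.60. Leaving out 1 library gave from 0 to 6 factors called. The log2 fold changes then ranged from -2.23 to -2.10 for Nkx2-5, -3.08 to -2.77 for Nkx2-3, -6.84 to -2.59 for Nkx2-6, -2.02 to -1.46 for Hand2, 0.047 to 0.41 for Hand1, -0.27 to -0.17 for Hey1, -0.25 to -0.18 for Hey2 and -1.67 to -0.44 for Heyl. The Nkx2-6 range rests on 3 fits, since this gene was not tested without the first control library. The calls without an Isl1_KO library assume that the single one left varies as little as the control pair. The highest numbers of calls, for factors and for all genes, came from these fits, with 12905 and 12834 genes tested. Each fit with 1 library left out leaves 1 library in a group, so its number of calls cannot support a difference. Over all genes, 311 were called, 601 with DESeq2 (306 shared), 993 under the study's criteria (267 shared), 492 without a filter (311 shared) and 27 to 6350 when 1 library was left out. A replicate block gave 454 calls (294 shared) and the same 3 factors, with Nkx2-5 at -2.17, and changed no other factor's call. Deviations of libraries with equal numbers had r = 0.00743 over 12027 genes. The control libraries differed by little more than counting error, so this value cannot decide whether the numbers pair the libraries. Depth limits Nkx2-6 and Nkx2-9 most.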
